A study of Mus musculus with 4 samples.

Results

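The enterocyte brush border genes examined here are Vil1, Ezr, Myo1a, Myo7b, Anpep, Cdhr2, Cdhr5, Espn, Eps8 and Ush1c, 10 of the 21887 protein-coding genes of the mouse. They were taken by name from the RefSeq annotation of mm10 (assembly GRCm38.p6). A gene was counted as occupied by SHP when the summit of a chromatin immunoprecipitation (ChIP-seq) peak lay within 5 kb of either end of the gene, and peaks with a summit up to 50 kb away were described. SHP (small heterodimer partner, gene Nr0b2) is an orphan nuclear receptor that has no DNA-binding domain and reaches chromatin through other transcription factors. The study applied an SHP antibody to jejunum and ileum of SHP-KO mice and of C57BL/6 wild-type (WT) mice. All mice were 8 to 12 weeks old, had fasted for 12 h and had eaten normal chow for 4 h before collection, so no fasted group stands beside them. Each genotype had an immunoprecipitated and an input sample, made as 3 sets with tissue of 3 mice combined in each. The labels give no further detail of the knockout allele, and input DNA was not used here.

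The brush border is the carpet of microvilli on the apical face of the absorptive enterocyte. Each microvillus holds a bundle of actin filaments, crosslinked by proteins such as villin and espin and tied to the membrane by ezrin and class I myosin. Neighbouring microvilli are joined at their tips by protocadherins, whose cytoplasmic tails bind a complex of harmonin and a myosin, and the membrane carries the digestive enzymes and transporters that face the gut lumen.

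There was 1 deposited peak list for each genotype, with 7 peaks for SHP-KO and 5775 for WT intestine. The KO list is labelled as overlapping peaks and the WT list as passing an irreproducible discovery rate of 0.05, so the lists were filtered differently. Read depth is unknown. With 1 list per genotype there was no replicate to test against, and counts of genes are given beside the share of all protein-coding genes, with exact (Clopper-Pearson) 95% intervals that cover counting error only. The peak value used most is the seventh column of the list, called the enrichment value here. It was deposited by the authors, its scale is not stated, and it was used only to describe and rank peaks within the WT list, where its median was 5.65 (interquartile range 4.93 to 6.46). Bulk tissue was used, so a peak cannot be assigned to enterocytes or to another cell of the gut wall.

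In the KO list, no summit lay within 50 kb of any of the 10 genes. Of the 10, 4 lay on a chromosome with a KO peak, and the nearest KO summit was 16.7 Mb from Ezr, 20.4 Mb from Cdhr5, 41.0 Mb from Anpep and 74.6 Mb from Ush1c. A list of 7 peaks leaves nearly every gene without one, so this does not show that a WT peak at these genes depends on SHP.

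In the WT list, 5 of the 10 genes were occupied (50%, interval 18.7 to 81.3), against 26.4% of all protein-coding genes. These were Anpep, Eps8, Myo7b, Vil1 and Ezr. The interval contains the share of all genes. Espn, Cdhr2, Myo1a, Cdhr5 and Ush1c had no summit within 5 kb. At that limit of 5 kb, Myo7b was the outermost occupied gene, with its summit 3920 bp away, and Espn was the nearest gene beyond it, at 6297 bp. Within 1 kb of an end, 4 genes had a summit (40%, 12.2 to 73.8, against 20.7% of all genes), since Myo7b dropped out.

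**Figure D1:**
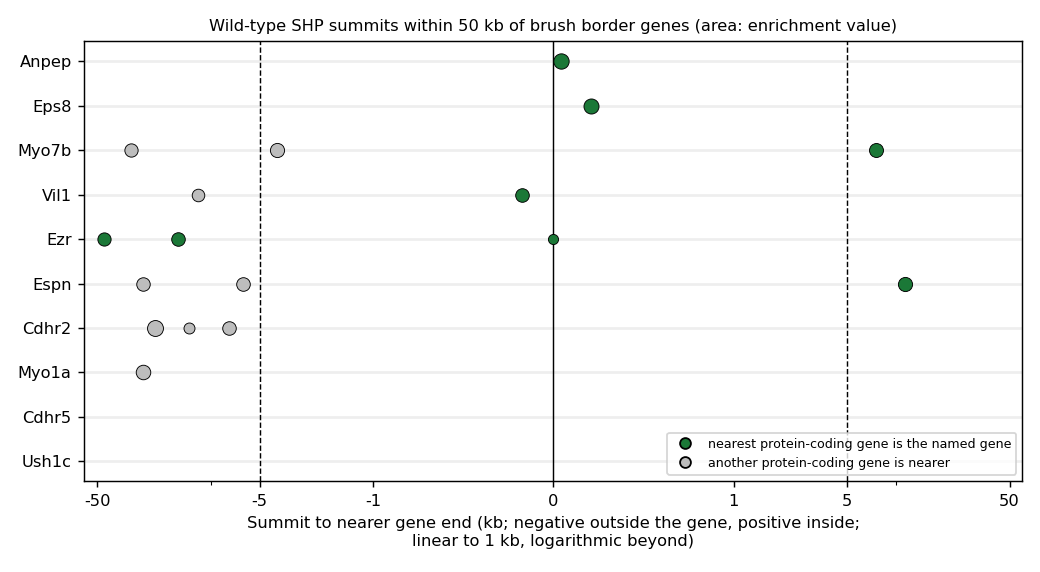
Each dot is a WT SHP summit no more than 50 kb from the gene named on the y axis. The x axis is the distance in kb to the nearer gene end (linear to 1 kb, logarithmic beyond), dot area follows the enrichment value, and dashed lines mark 5 kb. Anpep, Eps8, Vil1 and Ezr have a summit within 1 kb of an end, and Cdhr5 and Ush1c have none within 50 kb.

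Sequences are shown for the starts of 3 genes whose promoter windows lay wholly inside a WT peak, and for the starts of 2 genes with no summit within 50 kb. They are the RefSeq windows of build GRCm38.p6, from 250 bases before to 50 after the annotated start, printed 5′ to 3′ along the gene's strand. Capitals mark every match, on either strand, to AGGTCA (the nuclear receptor half-site), AAGGTCA (the half-site of NR5A receptors), CAAAGTC (a part of the HNF4 site), TTTATG or TTTATT (CDX), GATAA (GATA factors), CACGTG (E-box), TGACGT (a part of the cAMP response element), TGACTCA (AP-1) and GGGCGG (GC box). AAGGTCA contains AGGTCA.
Vil1, chr1:74409134-74409433, plus strand: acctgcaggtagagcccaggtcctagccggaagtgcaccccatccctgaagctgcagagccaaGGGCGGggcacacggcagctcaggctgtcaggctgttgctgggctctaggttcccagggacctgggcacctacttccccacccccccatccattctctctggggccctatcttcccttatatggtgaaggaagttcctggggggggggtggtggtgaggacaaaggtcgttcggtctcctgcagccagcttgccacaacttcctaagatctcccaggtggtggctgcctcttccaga
Ezr, chr17:6782731-6783030, minus strand: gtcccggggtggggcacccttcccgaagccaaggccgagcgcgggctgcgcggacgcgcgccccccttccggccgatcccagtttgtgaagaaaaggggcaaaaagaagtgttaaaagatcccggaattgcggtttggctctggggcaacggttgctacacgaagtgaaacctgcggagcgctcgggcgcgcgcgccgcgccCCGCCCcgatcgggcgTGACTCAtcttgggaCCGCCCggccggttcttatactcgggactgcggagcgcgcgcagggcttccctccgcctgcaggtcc
Anpep, chr7:79848161-79848460, minus strand: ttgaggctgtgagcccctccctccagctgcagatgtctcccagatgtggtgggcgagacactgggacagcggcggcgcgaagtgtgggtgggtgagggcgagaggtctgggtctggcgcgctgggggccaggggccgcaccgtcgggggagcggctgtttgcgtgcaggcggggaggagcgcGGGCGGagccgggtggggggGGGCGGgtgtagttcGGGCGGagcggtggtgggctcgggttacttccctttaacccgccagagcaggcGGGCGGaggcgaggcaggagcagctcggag
Cdhr5, chr7:141276737-141277036, minus strand: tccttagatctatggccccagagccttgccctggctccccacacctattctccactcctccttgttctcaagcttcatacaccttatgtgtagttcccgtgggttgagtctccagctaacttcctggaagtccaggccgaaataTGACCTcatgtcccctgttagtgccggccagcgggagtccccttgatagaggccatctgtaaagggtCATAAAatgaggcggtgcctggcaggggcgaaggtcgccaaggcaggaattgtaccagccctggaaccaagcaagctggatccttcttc
Ush1c, chr7:46238441-46238740, minus strand: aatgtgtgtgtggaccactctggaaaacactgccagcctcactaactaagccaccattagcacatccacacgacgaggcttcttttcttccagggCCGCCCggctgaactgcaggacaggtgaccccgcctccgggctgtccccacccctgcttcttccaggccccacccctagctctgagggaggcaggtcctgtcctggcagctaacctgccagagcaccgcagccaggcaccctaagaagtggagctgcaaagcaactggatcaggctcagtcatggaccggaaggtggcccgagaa

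Among the genes of the actin core, Vil1 and Eps8 were occupied and Espn was not. Vil1 encodes villin, which bundles, caps and severs actin filaments and is a standard marker of the intestinal epithelium. Its gene lies at chr1:74409384-74435560. The peak spanned chr1:74408875-74409571, 697 bp in all, and its summit lay 175 bp before the start, at base 76 of the window printed above. Its enrichment value was 5.68, close to the median of the list, and its −log10 p was 12.9, below the list median of 14.8. A second summit, 11959 bp before Vil1, lay 140 bp from an end of Ctdsp1 and had a value of 4.83.

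Eps8, which encodes a protein that caps and bundles actin at the tips of microvilli, is the longest of the 10 genes (172 kb, chr6:137477245-137649397). Its peak, chr6:137648722-137649704, had its summit 209 bp inside the end at the higher coordinate. The enrichment value of 6.94 ranked 771 among 5775, and the −log10 p of 19.1 was the highest of the 5 occupied genes. This was the single summit within 50 kb of either Eps8 end.

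Espn encodes espin, an actin-bundling protein that also shapes the stereocilia of the inner ear. The gene lies at chr4:152120331-152152414 on the minus strand. A peak at chr4:152130426-152133100 lay inside it, 11423 bp from the nearer end, with an enrichment value of 6.16. At 2675 bp it ranked 74 in width among the 5775 peaks. RefSeq lists 3 starts for Espn, and this summit lay 2829 bp before the innermost of them and 4571 bp from the middle one. The gene is therefore unoccupied by the distance to its ends, and has a summit within 5 kb when all listed starts are used. Of the other summits near Espn, one lay 156 bp from an end of Hes2 (5.68) and another 245 bp from an end of Acot7 (5.58).

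Among the genes that tie the core to the membrane, Ezr was occupied and Myo1a was not. Ezr encodes ezrin, which binds the membrane at one end and actin at the other (chr17:6738131-6782780, minus strand). The peak spanned chr17:6782571-6783527 and its summit lay 4 bp before the start, the closest of the 10 genes, at base 247 of the printed window. Its enrichment value of 3.15 was the lowest of the 5 occupied genes and ranked 5700 among 5775, with a −log10 p of 9.71. A pair of summits farther upstream, at 15863 and 45483 bp, had higher values (5.65 and 5.37). Ezr was the nearest protein-coding gene to both, and both lay within 260 bp of an end of the long noncoding RNA gene Gm2885.

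Myo1a encodes the class I myosin that bridges the actin core and the lateral membrane. Its gene lies at chr10:127703436-127720940. The nearest summit was 26200 bp away with an enrichment value of 6.47, and lay 171 bp from an end of Nemp1.

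Among the genes of the links between microvillus tips, Myo7b was occupied within 5 kb, and Cdhr2, Cdhr5 and Ush1c were not. Myo7b encodes the myosin of the tip complex (chr18:31959234-32036931). The summit that counted for it, in the peak chr18:31954986-31955871, lay 3920 bp outside the gene, within the neighbouring gene Lims2 and nearer to an end of Lims2 (3306 bp). Its enrichment value was 6.15 and its −log10 p 12.3. When each summit was given only to its nearest protein-coding gene, Myo7b lost this peak and 4 of the 10 genes were occupied, against 21.0% of all genes. A further peak, chr18:31965896-31967266, had its summit inside Myo7b, 7512 bp from the end, with a value of 5.98. The remaining summit, 30950 bp from the gene with a value of 5.40, lay 555 bp from an end of Iws1.

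Cdhr2 and Cdhr5 encode the protocadherins that join adjacent microvilli. Cdhr2 (chr13:54701463-54736662) had its nearest summits 7679 and 13539 bp before its start, both inside Rnf44, with enrichment values of 5.63 and 3.70. On the other side, a summit 21902 bp away had the highest value of any peak within 50 kb of the 10 genes, 7.77, and lay 296 bp from an end of Sncb. Cdhr5 (chr7:141269080-141276795) had no summit within 50 kb, the nearest being 50754 bp away. Ush1c, which encodes the scaffold protein harmonin (chr7:46195350-46238490), had its nearest summit 90688 bp away, the farthest of the 10.

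Anpep encodes aminopeptidase N, which trims peptides at the enterocyte surface and was the digestive enzyme among the 10 genes. It lies at chr7:79821803-79848210 on the minus strand. The peak, chr7:79847481-79848521, had its summit 41 bp after the start, at base 292 of the printed window. Its enrichment value of 7.21 was the highest of the 5 occupied genes and ranked 538 among 5775, with a −log10 p of 16.9. It was the single summit within 50 kb of Anpep.

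**Figure D2:**
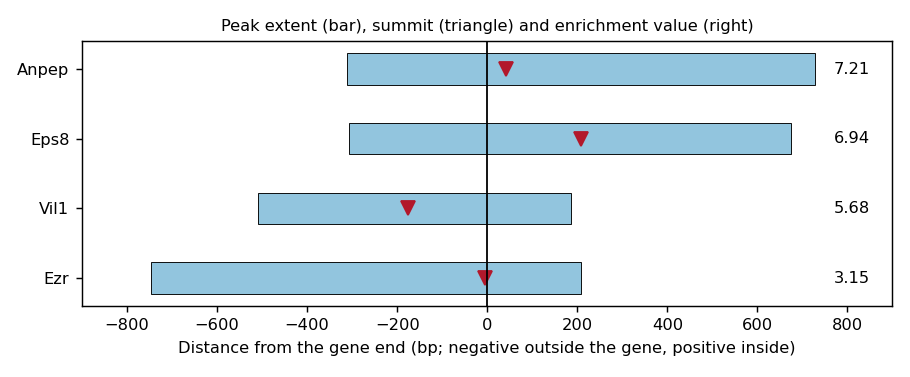
Bars show the extent of the WT peak at the 4 genes with a summit within 1 kb of an end, in bp from that end (negative outside the gene, positive inside), triangles mark the summits, and the figures at the right are enrichment values. All 4 peaks span the gene end, the summits lie between 175 bp outside and 209 bp inside, and the value at Ezr, 3.15, is the lowest.

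The 5 peaks that counted for these genes were set beside the whole WT list. Their enrichment values ran from 3.15 to 7.21 with a median of 6.15, against 5.65 for all WT peaks and 5.73 for the highest peak of each of the 5778 occupied genes. Their widths ran from 697 to 1041 bp with a median of 957 bp, against 978 bp for all WT peaks. By enrichment value the order was Anpep, Eps8, Myo7b, Vil1 and Ezr, and by −log10 p it was Eps8, Anpep, Vil1, Myo7b and Ezr. With no replicate lists, none of these values carries an error, and neighbours in the order cannot be separated. Many peaks also share both values with other peaks to the last digit. The pair at Myo7b occurred in 31 peaks, that at Anpep in 11, at Vil1 in 8 and at Eps8 in 7, and the pair at Ezr was its own.

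When only WT peaks with a −log10 p of the list median or more were kept, Anpep and Eps8 were left, 2 of 10 genes against 14.8% of all genes. When the same was done by enrichment value, 4 of the 10 were left, all but Ezr, against 13.9% of all genes. Counting any base of a peak in the gene or the 5 kb around it added Espn and gave 6 of 10, against 28.7% of all genes. That rule takes in more sequence for longer genes. Median gene length was 44.65 kb for the occupied genes and 32.1 kb for the unoccupied ones, against 17.2 kb for all genes. The part of gene length in these counts was not tested.

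**Figure D3:**
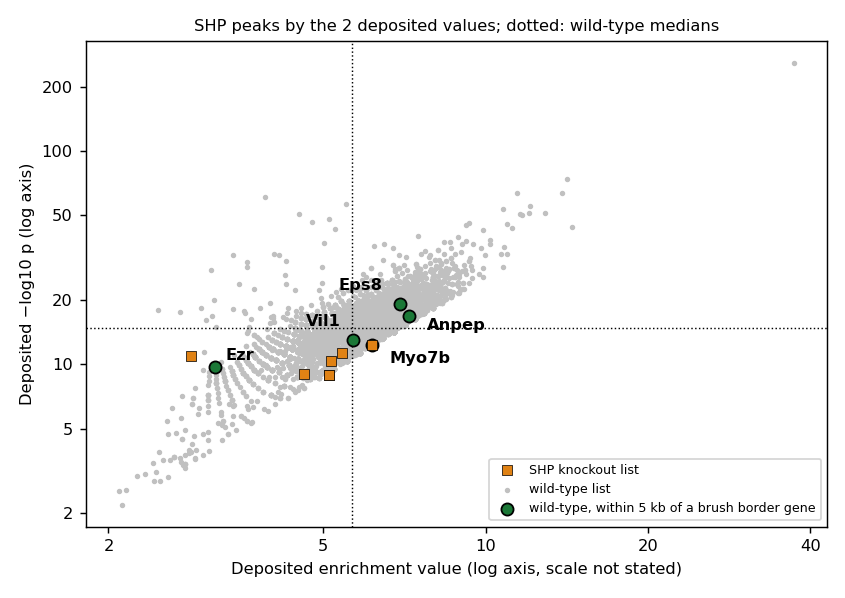
Each point is a deposited peak, placed by its enrichment value and its −log10 p on log axes, with SHP-KO peaks as squares, WT peaks as small dots, and the 5 WT peaks within 5 kb of the brush border genes named. Dotted lines are the WT medians (5.65 and 14.8). Eps8 and Anpep lie above both medians, Vil1 and Myo7b above that of the enrichment value alone, and Ezr below both.

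Within 50 kb of their ends the 10 genes had 17 summits, and 8 of the 10 had at least 1, against 48.2% of all genes. Of the 12 summits between 5 and 50 kb, 7 were within 1 kb of the end of a different protein-coding gene (Ctdsp1, Nemp1, Iws1, Rnf44, Sncb, Hes2 and Acot7), and for 4 the brush border gene was the nearest protein-coding gene. These 4 were the summits inside Espn and Myo7b and both upstream of Ezr. The enrichment values of the 12 ran from 3.70 to 7.77. Among all 5775 WT peaks, 4044 had the end of some protein-coding gene within 1 kb. A count within 50 kb therefore takes in peaks at the ends of neighbouring genes.

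The promoter windows differed in base composition. RefSeq windows were matched for 8 of the 10 genes, giving 10 windows because Espn has 3. The Anpep window held 72.3% G and C and 28 CG dinucleotides, the Ezr window 68.0% and 38, and the Vil1 window 61.7% and 5. The 7 windows of Myo1a, Cdhr2, Cdhr5, Espn and Ush1c, none of them in a peak, held 55.0 to 62.7% G and C and 2 to 15 CG dinucleotides. Ezr and Anpep thus stood apart from the other windows in both measures, and Vil1, which was occupied, lay among the unoccupied ones. Over all 32851 windows, those whose start was within 1 kb of a WT summit had a median of 65.7% G and C and 27 CG dinucleotides, against 51.0% and 5 for the rest. A summit was near the start of 50.2% of all windows with 70% G and C or more, 34.1% of those from 60 to 70%, 10.3% of those from 50 to 60% and 1.73% of those under 50%. For the brush border windows the counts were 1 of 1, 2 of 6 and 0 of 3 in the upper 3 classes. Windows of one gene can overlap, so they are not independent. Base composition moved with occupancy over all windows, and its part in the occupancy of these genes was not tested.

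**Figure D4:**
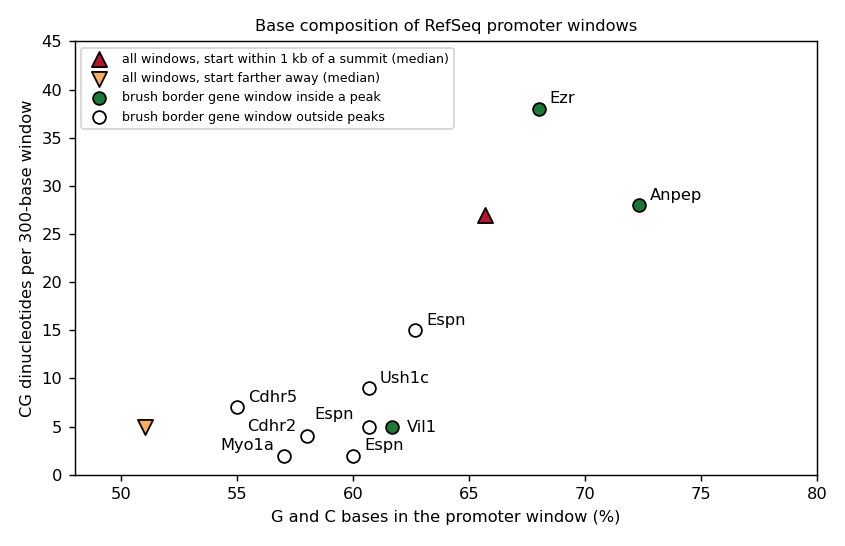
Each circle is a RefSeq promoter window of a brush border gene, placed by its share of G and C bases (%) and its number of CG dinucleotides per 300 bases. Filled circles lie inside a WT peak, open ones outside, and triangles give the medians of all windows with and without a summit within 1 kb of the start. Anpep lies near the median of windows with a summit in CG dinucleotides (28 against 27) and above it in G and C (72.3% against 65.7%). Ezr lies nearer to that median in G and C (68.0%) and above it in CG dinucleotides (38). Vil1 lies among the open circles.

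The searched motifs were counted in all 10 windows. The GC box GGGCGG occurred 4 times in the Anpep window, 2 times in the Ezr window and 1 time in the Vil1 window, and among the unoccupied genes 3 times over the Espn windows and 1 time in the Ush1c window. It is found in 35.7% of all windows. The Ezr window also held TGACTCA, with its first base 32 bases before the start, a motif found in 5.20% of all windows. The nuclear receptor half-site AGGTCA occurred in the Cdhr5 window, 106 bases before the start, and in the Cdhr2 window, but not in those of Vil1, Ezr and Anpep, and it is found in 16.3% of all windows. The Cdhr5 window and an Espn window also held TTTATG (11.9% of all windows), and the Cdhr2 window CAAAGTC (4.44%). None of the 10 windows held AAGGTCA (4.72% of all windows), CACGTG (7.15%), TGACGT (7.51%), TTTATT (19.6%) or GATAA (25.4%).

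The 10 genes were then set beside 82 other genes, in 5 lists drawn up by role or relation to the brush border. No KO summit lay within 5 kb of any of the 82 genes, and 1 gene, Rdx, had a KO summit within 50 kb. That summit lay 7510 bp outside Rdx, and its value in the KO list was 5.12. In the WT list, 20 of the 82 were occupied (24.4%, 15.6 to 35.1), against 26.4% of all genes. Of the 24 genes of the microvillus core and its membrane linkage, 10 were occupied (41.7%, 22.1 to 63.4). The highest values were at Actb, which encodes beta-actin (9.48), Eps8l3 (6.60), Eps8l2 (6.40), both relatives of Eps8, and Rdx, which encodes the ezrin relative radixin (6.35). The Eps8l3 and Eps8l2 summits with these values were nearer to Gstm5 and Deaf1, but each gene had 2 summits within 5 kb. With each summit given only to its nearest protein-coding gene, the same 10 of 24 core genes were occupied. Of the 12 genes of apical trafficking, 6 were occupied (50%, 21.1 to 78.9), led by Snap23, a membrane fusion protein whose summit was nearer to Zfp106 (7.02), Stk10, a kinase of ezrin-type proteins (5.32), Rab11fip1, a partner of Rab11 (5.19), and Unc45a, a myosin chaperone (4.86). The trafficking count fell to 2 of 12 with peaks at or above the list median of −log10 p (14.8% of all genes). By enrichment value it fell to 1 of 12 (8.33%, against 13.9% of all genes), so its side of the background turned. The tip-link list held Calml4, Anks4b, Cdhr1, Pcdh15, Ush1g and Tmigd1, and none of the 6 was occupied (exact interval 0 to 45.9%). Whether each of them acts in the enterocyte brush border was not examined, so the list may hold genes of other tissues. Cdhr2, Cdhr5 and Ush1c were unoccupied too, so Myo7b alone counted among the tip-link genes examined. It counted through the summit within Lims2, 3920 bp away. Within 1 kb, or with each summit given only to its nearest gene, Myo7b was not occupied either.

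The digestive enzymes and transporters were counted in the same way. Of 18 brush border hydrolases, 1 was occupied (5.56%, 0.141 to 27.3), namely Ace, which encodes angiotensin-converting enzyme (6.58, summit 50 bp inside the gene). Anpep, which is not in that list, had a peak. Sis, Lct, Dpp4, Mep1a and Alpi had no summit within 50 kb. In that order, they encode sucrase-isomaltase, lactase, dipeptidyl peptidase 4, a meprin subunit and intestinal alkaline phosphatase. Of the 18 hydrolases, 4 had a summit within 50 kb, namely Ace, Treh, Ggt1 and Naaladl1 (22.2%, 6.41 to 47.6, against 48.2% of all genes). Of the 22 genes in the transporter list, 3 were occupied (13.6%, 2.91 to 34.9). These were the sterol transporter Npc1l1 (37.2, the highest value in the WT list), Cybrd1 (7.78) and the iron transporter Slc11a2 (5.92). Cybrd1 encodes a ferric reductase, an enzyme counted in this list. Counting any base of a peak in the gene or the 5 kb around it gave 6 of these 22 genes (27.3%, against 28.7% of all genes). At 5 kb, the interval of the tip-link list rests on 6 genes and those of the other lists on 12 to 24. All 5 list intervals at 5 kb contain the 26.4% of all protein-coding genes, and the differences between lists were not tested.

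**Figure D5:**
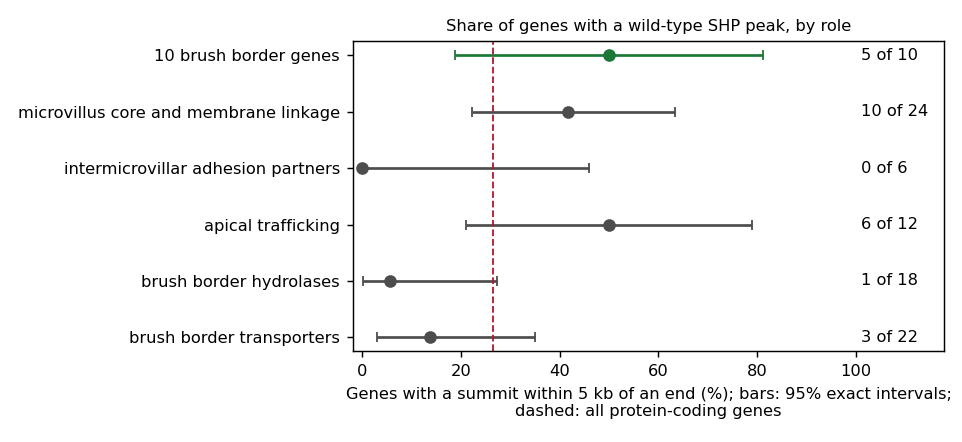
Points give the share of genes (%) with a WT SHP summit no more than 5 kb from an end. They cover the 10 brush border genes and 5 lists of other genes by role. Bars are 95% exact intervals, with counts at the right. The dashed line is the 26.4% of all protein-coding genes. The 10 genes and the lists of the core and of trafficking lie above the line, and the other 3 lists lie below it, with every interval crossing it. Trafficking falls below the share of all genes when peaks under the median enrichment value are left out.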

How the data were processed

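SHP ChIP-seq peak lists of SHP-KO and WT intestine were used, 1 per genotype. The submitters' processing notes name CASAVA 1.4, BWA and the build mm10. The peak caller and its settings are not stated in the labels or notes used here. The deposited lists follow the 10-column narrowPeak layout without a header. The deposited signal (enrichment value), −log10 p and −log10 q are the authors' values for each peak, and the deposited score ran from 540 to 1000 in the WT list. Read depth is unknown.

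Positions were made 1-based, and the summit was placed by the list's offset. Distances ran to the nearer end of each of 21887 protein-coding RefSeq genes (GRCm38.p6, the coordinates of mm10). The annotation gives gene ends without exons, so peaks were not classed as exonic or intronic. Strand and sequence came from the RefSeq promoter table. The distance computation was tested on simulated data, where peaks were placed at known genes. All 10 genes were named. From each other list the occupied genes with the highest values, up to 4, were named, and some unoccupied ones were chosen after their values were seen. The genes and lists were chosen with earlier results of these data known. No test between genotypes was made. Python 3.11.15, pandas 2.3.3, numpy 2.4.6 and scipy 1.17.1 were used.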

Additional observations from a re-analysis of the deposited data

How the results depend on the processing

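The count of occupied brush border genes, 5 of 10 with a summit within 5 kb, moved by more than 1.5 times under 2 of 6 alternatives, to 8 with a summit within 50 kb and to 2 with WT peaks whose −log10 p was the list median or more. It was 4 to 6 under the other 4. The share of the 10 genes was above that of all protein-coding genes by 23.6 percentage points at 5 kb and by 5.24 to 31.8 points under the 6 alternatives. Of the values for single genes and other lists, 53 stayed the same and 15 moved. Staying the same meant the same side of 5 kb for distances and within 1.5 times for counts. For the order of occupied genes it meant the same place, and the highest enrichment values that stayed the same were identical. The trafficking and transporter counts given above moved, as did the places of Vil1, Myo7b, Anpep and Eps8 by −log10 p. So did the highest value near Ezr, which was 5.65 within 50 kb. The nearest summit to Espn moved too, to 2829 bp when listed starts alone were used. No paired analysis was possible because each genotype had 1 list, and for the same reason no replicate could be left out. Without read depth, a gene with no peak is one with none in this list, and weaker occupancy was not detectable here.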

Other observations

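Relatives of the brush border genes were compared within families. Among the ezrin, radixin and moesin genes, the enrichment values were 3.15 at Ezr and 6.35 at Rdx, and Msn had no summit within 50 kb. Among the Eps8 genes, Eps8 had 6.94, Eps8l2 6.40 and Eps8l3 6.60, and Eps8l1 had no summit within 50 kb. The peaks with these values at Eps8l2 and Eps8l3 were nearer to Deaf1 and Gstm5. Both genes had another summit within 5 kb and stayed occupied when each summit was given only to its nearest protein-coding gene. Of the myosins, Myo7b (6.15, summit within Lims2), Myo6 (5.19) and Myo5b (4.83) were occupied. Myo6 works at the base of the microvilli and Myo5b is a carrier of apical cargo. The class I genes Myo1a, Myo1d and Myo1e were not occupied. Vil1 had 5.68, and its relative Vill had no summit within 50 kb. Neither Espn nor Espnl was occupied. These families were set side by side after their values were seen, and the differences were not tested.

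Of the 20 occupied genes in the other 5 lists, 15 were themselves the nearest protein-coding gene to their highest peak, and for 5 another gene was nearer. One of these 5 was Pls1, which encodes plastin 1, the fimbrin of the brush border. Its highest peak (5.72) lay 141 bp from an end of Trpc1, while another summit lay 107 bp from an end of Pls1 itself. With each summit given only to its nearest protein-coding gene, 18 of the 82 genes were still occupied (22.0%, against 21.0% of all genes).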
